A study of Mus musculus with 11 samples.

Results

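Marrow homing and adhesion receptors were followed as 7 genes, taken as the rows of the count table whose Ensembl identifiers map to Cxcr4, Ccr7, Selplg, Cd44, Itga4, Itgb1 and Itgal. All 7 were found among 55487 genes, and all 7 were among the 14521 genes that passed the filter on low counts. Bulk RNA was sequenced from acute myeloid leukaemia (AML) of mice that all carried Flt3-ITD, a duplication inside the gene of the cytokine receptor FLT3 that keeps the receptor active, and NHD13, the transgene of the NUP98-HOXD13 fusion. The 2 groups differed in Ifnar1, the gene of a type I interferon receptor subunit: 5 libraries were Ifnar1 -/- and 6 were Ifnar1 +/-, so every library had at most 1 functional copy. The series' design text calls the source HPCs and the labels call it AML. Neither the labels nor the design text give age, treatment, the promoter of the transgene or the mice behind the libraries. Spread, and with it each p-value, is therefore spread between libraries, which may be technical in part.

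Blood-forming cells enter and stay in the bone marrow through a sequence of contacts. Cxcr4 is the receptor for the chemokine CXCL12 made by marrow stroma, and Ccr7 is the receptor for CCL19 and CCL21, which guide cells into lymphoid tissue. Selplg encodes PSGL-1, the ligand through which cells roll on selectins, and Cd44 encodes a receptor for hyaluronan that can also carry selectin-binding sugars. Itga4 encodes the alpha4 integrin chain, which pairs with the beta1 chain (Itgb1) to bind VCAM1 or with the beta7 chain (Itgb7) to bind MAdCAM1. Itgal encodes the alphaL chain, which pairs with beta2 (Itgb2) to form LFA-1, a receptor for ICAM molecules. In bulk RNA, fewer cells of a type and less RNA per cell cannot be told apart.

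Upstream sequence was in the RefSeq table (GRCm38.p6) for 4 of the 7 genes, matched by symbol: Cxcr4, Itga4, Cd44 and Itgb1. The 250 bases before the annotated start are shown for 3 of them, picked by values described further on. Cxcr4 had the smallest p of the 7 between genotypes, Itgb1 was separated by the level of Ebf1, and its partner Itga4 was not. A link between these sequences and the values was not tested. The windows lie at chr1:128592300-128592549 (minus strand), chr8:128685404-128685653 (plus strand) and chr2:79255176-79255425 (plus strand), in the order Cxcr4, Itgb1 and Itga4. Each is written 5′ to 3′, and capitals mark matches to the motifs named after the sequences.
Cxcr4: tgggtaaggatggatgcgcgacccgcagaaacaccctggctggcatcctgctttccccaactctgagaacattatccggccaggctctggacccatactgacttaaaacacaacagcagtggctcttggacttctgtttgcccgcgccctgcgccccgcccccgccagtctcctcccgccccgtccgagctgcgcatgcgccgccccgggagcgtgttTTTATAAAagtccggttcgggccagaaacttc
Itgb1: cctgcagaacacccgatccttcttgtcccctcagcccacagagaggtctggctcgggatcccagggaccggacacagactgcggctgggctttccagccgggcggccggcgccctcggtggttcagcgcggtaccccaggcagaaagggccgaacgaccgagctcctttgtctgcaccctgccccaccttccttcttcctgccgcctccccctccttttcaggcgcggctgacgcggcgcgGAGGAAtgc
Itga4: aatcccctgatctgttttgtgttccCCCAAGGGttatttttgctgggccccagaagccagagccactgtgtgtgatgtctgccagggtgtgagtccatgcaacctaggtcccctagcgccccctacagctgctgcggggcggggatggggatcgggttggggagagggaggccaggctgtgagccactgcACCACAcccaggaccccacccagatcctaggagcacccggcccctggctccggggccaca

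Both strands were searched for 7 motifs. These were the EBF motif, its core CCCNNGGG, the interferon-stimulated response element, the TATA box as TATAAA, the PU.1 motif as GAGGAA, the GATA motif as AGATAA and the RUNX motif as TGTGGT. The EBF core lies inside the longer EBF motif, so a match to the longer one counts for both. The Cxcr4 window held TATAAA on both strands in overlapping matches, at positions -32 to -25 from the start, a motif present in 12.4% of 32851 windows of the same length. The Itgb1 window held GAGGAA at positions -9 to -4, present in 23.3% of windows. The Itga4 window held CCCNNGGG at positions -225 to -218 and TGTGGT on the other strand at -60 to -55, which occur in 11.8% and 14.05% of windows. The Cd44 window, which is not printed, held GAGGAA in 2 places and AGATAA, the last of which occurs in 9.99% of windows. None of the 4 windows held the longer EBF motif or the interferon-stimulated response element, which occur in 0.779% and 2.98% of windows.

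Libraries held 25583642 to 38728143 estimated counts. The targeted gene had 36.3 to 133 CPM (counts scaled to a common library size, with TMM factors) in Ifnar1 -/- and 39.3 to 84.5 CPM in Ifnar1 +/- libraries. Which part of the gene was removed is not stated in the labels, so these gene-level counts do not check them. The libraries fell into 2 levels of Ebf1, a transcription factor gene that specifies B cells: 5 had 531 to 745 CPM (Ebf1-high: Ifnar1 -/- libraries 3 and 5, Ifnar1 +/- libraries 3, 4 and 5) and 6 had 0.0309 to 8.72 CPM (Ebf1-low). The summed level of 12 B-lineage markers was 5996 to 9304 CPM in Ebf1-high and 16.2 to 206 CPM in Ebf1-low libraries, while that of 10 markers of myeloid and immature leukaemic cells was 185 to 312 CPM in Ebf1-high and 392 to 1189 CPM in Ebf1-low libraries. The second sum was largely Kit, Flt3, Cd34 and Spi1, and myeloid granule genes did not follow it. Mpo, the myeloperoxidase gene that defines myeloid blasts, was at most 53.6 CPM in any library. It was 0.936 to 53.6 CPM in Ebf1-high and 0.0737 to 27.4 CPM in Ebf1-low libraries. Elane was 0.504 to 21.2 CPM in Ebf1-high and 0 to 33.5 CPM in Ebf1-low libraries, so both genes overlapped between the levels. Ifnar1 -/- library 2 stood apart with 59146 CPM summed over 8 eosinophil markers, 47695 CPM of it Prg2, against at most 1563 CPM elsewhere. Its sum over 8 neutrophil markers was 38169 CPM, mostly Ngp (24050 CPM), Retnlg and S100a9, against at most 6758 CPM elsewhere, while Ltf, Camp, Mmp8 and Cxcr2 were each higher in another library. Ifnar1 +/- library 6 had 134310 CPM over 9 erythroid markers, against at most 15714 CPM elsewhere. Of 10 endothelial and stromal markers 4 exceeded 1 CPM in any library, with sums of 9.13 to 99.9 CPM. These sums were largely Pdgfrb, which had 8.18 to 90.4 CPM and exceeded 1 CPM in all 11 libraries. The defining endothelial genes Cdh5 and Kdr were at most 0.555 and 0.109 CPM.

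Levels per length ordered the 7 genes as Selplg, Cxcr4, Cd44, Itgb1, Itgal, Itga4 and Ccr7. On the scale of CPM per kilobase of merged exons, median levels over the 11 libraries were 99.8 for Selplg, 16.2 for Cxcr4, 10.9 for Cd44, 10.5 for Itgb1, 8.49 for Itgal, 3.65 for Itga4 and 0.591 for Ccr7. Selplg exceeded Cxcr4 in all 11 libraries, and Cxcr4 exceeded Cd44 in 10 of 11. From Cxcr4 downward, the medians of each pair of neighbours differed by less than the larger SD over libraries. Cd44 exceeded Itgb1 in only 5 of 11 libraries, and Itgal exceeded Itga4 in 10 of 11. In Ifnar1 -/- libraries the median of Itgal was 20.2 CPM per kilobase and that of Itgb1 10.5, and in Ifnar1 +/- libraries that of Itgal was 7.13 and that of Itgb1 11.9.

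No receptor gene passed the test between genotypes. All 7 had an adjusted p of 0.9998 (edgeR quasi-likelihood test, Benjamini-Hochberg over 14521 genes), and 0% of the 14521 genes passed. At an unadjusted p under 0.05 there were 289 genes (1.99%), of which 177 were higher in Ifnar1 -/- libraries (1.22% of those tested), and Cxcr4 was the only 1 of the 7 among them. DESeq2 called 3 genes on the same table and limma voom called 0, and none of the 7 receptor genes was among them in either tool. The log2 fold change was above 0 for 6 of the 7, with a median of 0.38, beside -0.01 over all tested genes. Of all 14521 tested genes, 7019 were above 0 and 7502 below. All 7 had overlapping ranges between genotypes, and 0.124% of tested genes did not.

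**Figure D1:**
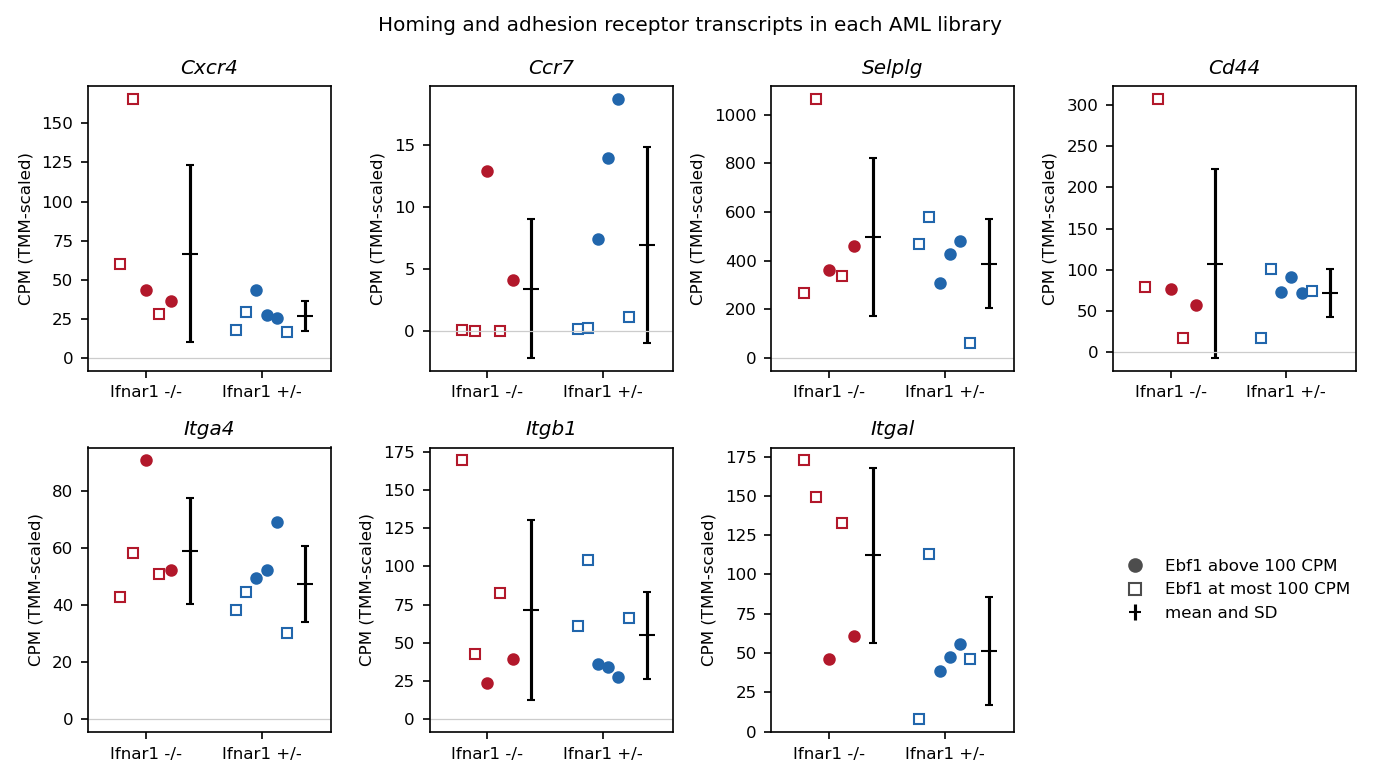
Scaled CPM of the 7 receptor genes (vertical axes, linear) in each of 5 Ifnar1 -/- and 6 Ifnar1 +/- libraries, with the mean and SD beside the points. Filled circles are libraries with Ebf1 above 100 CPM and open squares the others. Ranges overlap between genotypes in all 7 panels, and the highest points of Cxcr4, Selplg and Cd44 belong to Ifnar1 -/- library 2.

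Of the 7 genes, the chemokine receptor gene Cxcr4 had the largest log2 fold change. Cxcr4 (ENSMUSG00000045382) lies at chr1:128588199-128592293 on the minus strand (GRCm38). In order, Ifnar1 -/- libraries 1 to 5 had 59.9, 166, 43.2, 27.8 and 36.4 CPM of Cxcr4, and Ifnar1 +/- libraries 1 to 6 had 17.9, 29.3, 43.5, 27.4, 25.7 and 16.8 CPM. The highest values were in Ifnar1 -/- libraries 2 and 1, while Ifnar1 +/- library 3 lay above the other 3 Ifnar1 -/- libraries. Cxcr4 averaged 66.6 ± 56.6 CPM in Ifnar1 -/- AML and 26.7 ± 9.66 CPM in Ifnar1 +/- AML (SD, n = 5 and 6). Its log2 fold change was 1.31 (SE 0.46), with an unadjusted p of 0.0159 in edgeR and 0.0281 in an exact two-sided permutation test of log2(CPM + 1). Without Ifnar1 -/- library 2 it was 0.65, with an unadjusted p of 0.056 in edgeR. Without that library and Ifnar1 +/- library 6 it was 0.55, with an unadjusted p of 0.0884 in edgeR. With log2 Ebf1 as a covariate it was 1.19, with an unadjusted p of 0.0543 in edgeR. Leaving out any other single library kept the unadjusted p under 0.05 in edgeR. The part of library 2's eosinophil and neutrophil transcripts in the result was not tested. In Ebf1-low libraries the range of Cxcr4 was 27.8 to 166 CPM in Ifnar1 -/- AML and 16.8 to 29.3 CPM in Ifnar1 +/- AML, and in Ebf1-high libraries it was 36.4 to 43.2 CPM in Ifnar1 -/- AML and 25.7 to 43.5 CPM in Ifnar1 +/- AML. These ranges overlapped at both levels of Ebf1.

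Ccr7 transcripts were scarce and followed the level of Ebf1 in both genotypes. Ccr7 (ENSMUSG00000037944) lies at chr11:99144196-99155077 on the minus strand (GRCm38). Levels of Ccr7 were 0.0927, 0, 12.9, 0.0369 and 4.13 CPM for Ifnar1 -/- libraries 1 to 5, and for Ifnar1 +/- libraries 1 to 6 they were 0.161, 0.301, 7.42, 14.0, 18.8 and 1.17 CPM. The 5 Ebf1-high libraries, with 129 to 777 counts, lay above all 6 Ebf1-low libraries, with 0 to 36 counts. The 0 counts of Ifnar1 -/- library 2 allow up to 0.155 CPM, for counting error only. Ccr7 passed the filter on low counts largely through its Ebf1-high libraries, so a gene like it had to differ between the Ebf1 levels. Between genotypes its log2 fold change was -1.02 (SE 1.63), and it was -0.42 without Ifnar1 +/- library 5 and -2.67 without Ifnar1 -/- library 3.

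Selplg was the most abundant of the 7 per length, and the 2 extreme libraries were of different genotypes. Selplg (ENSMUSG00000048163) lies at chr5:113818536-113832644 on the minus strand (GRCm38). The 5 Ifnar1 -/- libraries, in order, had 269, 1065, 360, 338 and 459 CPM, and Ifnar1 +/- libraries 1 to 6 had 470, 578, 309, 426, 481 and 61.9 CPM. Apart from Ifnar1 -/- library 2 and Ifnar1 +/- library 6, all values lay between 269 and 578 CPM. Selplg averaged 498 ± 324 CPM in Ifnar1 -/- AML and 388 ± 182 CPM in Ifnar1 +/- AML (SD, n = 5 and 6), a log2 fold change of 0.36 (SE 0.51). It was -0.10 without Ifnar1 -/- library 2 and -0.33 without both of these libraries. They are the libraries with the highest sums of eosinophil and neutrophil markers and of erythroid markers, and the part of those cells in Selplg was not tested.

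Cd44 was lowest in a library of each genotype. Cd44 (ENSMUSG00000005087) lies at chr2:102811141-102901665 on the minus strand (GRCm38). Cd44 was at 79.2, 307, 77.02, 16.8 and 57.03 CPM across the 5 Ifnar1 -/- libraries, and at 17.2, 101, 72.5, 91.8, 71.8 and 73.8 CPM across the 6 with Ifnar1 +/-, in library order. Ifnar1 -/- library 4 and Ifnar1 +/- library 1 were low, and both were Ebf1-low. The other 9 libraries had at least 57.03 CPM. Cd44 averaged 107 ± 114 CPM in Ifnar1 -/- AML and 71.4 ± 29.1 CPM in Ifnar1 +/- AML (SD, n = 5 and 6), with overlapping ranges. The log2 fold change of 0.59 (SE 0.64) was -0.31 without Ifnar1 -/- library 2. Cd44 has many spliced forms, and counts per gene do not separate them.

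The integrin alpha chains differed in how far they varied. Itga4 was the steadiest of the 7, its highest library having 3.0 times the level of its lowest. Itga4 (ENSMUSG00000027009) lies at chr2:79255426-79333123 on the plus strand (GRCm38). By library number, Ifnar1 -/- AML had 42.8, 58.2, 90.8, 51.1 and 52.3 CPM of Itga4, and Ifnar1 +/- AML had 38.4, 44.7, 49.7, 52.5, 69.3 and 30.3 CPM. Means were 59.0 ± 18.6 CPM in Ifnar1 -/- AML and 47.5 ± 13.4 CPM in Ifnar1 +/- AML (SD, n = 5 and 6), and the ranges overlapped. That is a log2 fold change of 0.31 (SE 0.25), which was 0.10 without Ifnar1 -/- library 3, the highest. With log2 Ebf1 as a covariate it was 0.51 (SE 0.20), with an unadjusted p of 0.0264 in edgeR and an adjusted p of 0.999 (Benjamini-Hochberg). Exons of Itga4 overlap those of Cerkl on the opposite strand, which had 0.0737 to 5.72 CPM, and strand use in counting is not given in the sources used here.

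Itgal varied the most among the 6 genes counted in every library, by 22.2 times between its highest and lowest, although that rests on Ifnar1 +/- library 1 at 7.78 CPM, the next lowest being 38.5 CPM. Itgal (ENSMUSG00000030830) lies at chr7:127296260-127335138 on the plus strand (GRCm38). Itgal was counted at 173, 149, 46.05, 132 and 60.96 CPM across the Ifnar1 -/- libraries, and at 7.78, 113, 38.5, 47.5, 55.8 and 46.1 CPM across those with Ifnar1 +/-, each in library order. Ifnar1 -/- libraries 1, 2 and 4, all Ebf1-low, were the highest 3 of the 11, and the other 2 Ifnar1 -/- libraries lay within the Ifnar1 +/- range. Itgal averaged 112 ± 55.8 CPM in Ifnar1 -/- AML and 51.5 ± 34.5 CPM in Ifnar1 +/- AML (SD, n = 5 and 6), a log2 fold change of 1.12 (SE 0.56) with an unadjusted p of 0.0686 in edgeR and 0.0563 in the exact permutation test. Unadjusted p was 0.0463 in DESeq2 and 0.0345 in limma voom, and neither passed after adjustment. Over all 14521 tested genes, unadjusted p was under 0.05 for 454 in DESeq2 and for 1241 in limma voom. In Ebf1-low libraries Itgal was 132 to 173 CPM in Ifnar1 -/- AML and 7.78 to 113 CPM in Ifnar1 +/- AML, and in Ebf1-high libraries it was 46.05 to 60.96 CPM in Ifnar1 -/- AML and 38.5 to 55.8 CPM in Ifnar1 +/- AML. No test was made within a level of Ebf1. With log2 Ebf1 as a covariate the log2 fold change was 0.69.

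Itgb1 separated the levels of Ebf1 and not the genotypes. Itgb1 (ENSMUSG00000025809) lies at chr8:128685654-128733200 on the plus strand (GRCm38). From library 1 to library 5, Ifnar1 -/- AML had 169, 42.7, 23.8, 82.8 and 39.7 CPM, and from library 1 to library 6 Ifnar1 +/- AML had 60.9, 104, 36.1, 34.3, 27.9 and 66.2 CPM. All 5 Ebf1-high libraries, at 23.8 to 39.7 CPM, lay below all 6 Ebf1-low libraries, at 42.7 to 169 CPM. With CPM from plain library totals they overlapped, since Ifnar1 -/- library 2 then had 29.1 CPM and Ebf1-high libraries reached 44.03 CPM. Itgb1 averaged 71.7 ± 58.7 CPM in Ifnar1 -/- AML and 54.9 ± 28.6 CPM in Ifnar1 +/- AML (SD, n = 5 and 6). The log2 fold change between genotypes was 0.38 (SE 0.52), and it was -0.22 without Ifnar1 -/- library 1 and -0.16 with log2 Ebf1 as a covariate.

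**Figure D2:**
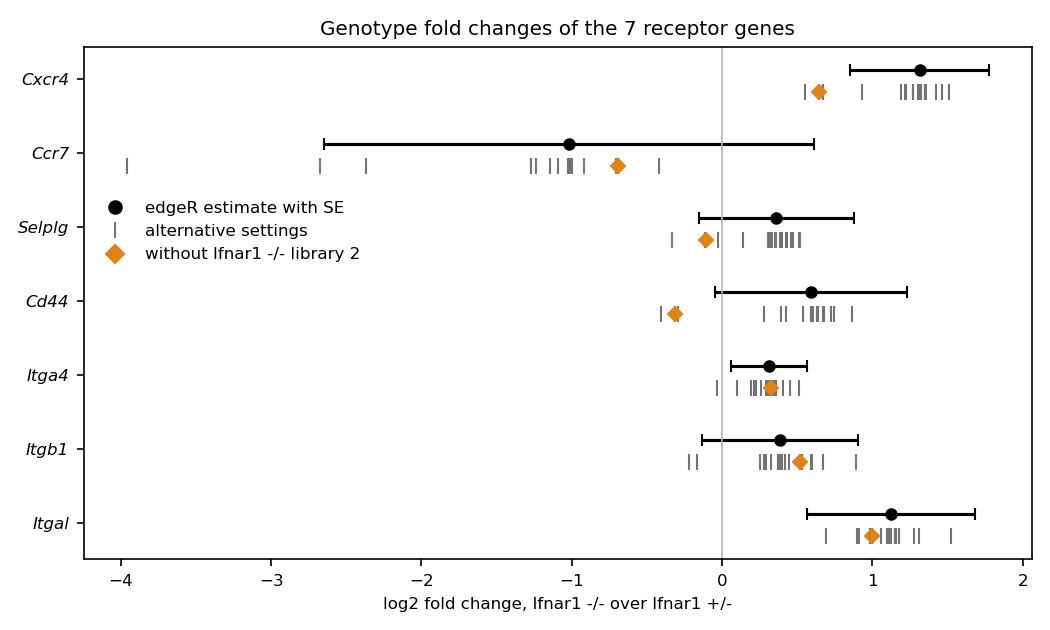
Log2 fold changes of the 7 receptor genes, Ifnar1 -/- over Ifnar1 +/- (horizontal axis). Black points with bars are the edgeR estimates with their SE, grey ticks are the alternative settings, and orange diamonds leave out Ifnar1 -/- library 2. Without that library Selplg and Cd44 lie below 0 and Cxcr4 lies at 0.65.

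By Ebf1 level, 2 of the 7 genes had ranges that did not overlap, Ccr7 above and Itgb1 below in Ebf1-high libraries. Of all tested genes 21.1% had ranges that did not overlap, 1751 above and 1307 below, so the count for the receptor genes is near the background. Ebf1 level was measured in the same libraries, so these values are a description without a test. For Selplg, Cd44, Cxcr4 and Itgal the range of the Ebf1-high libraries lay inside that of the Ebf1-low libraries. Selplg was 309 to 481 CPM in Ebf1-high and 61.9 to 1065 CPM in Ebf1-low libraries, and Cd44 was 57.03 to 91.8 CPM in Ebf1-high and 16.8 to 307 CPM in Ebf1-low libraries. Cxcr4 was 25.7 to 43.5 CPM in Ebf1-high and 16.8 to 166 CPM in Ebf1-low libraries, and Itgal was 38.5 to 61.0 CPM in Ebf1-high and 7.78 to 173 CPM in Ebf1-low libraries. Itga4 differed from these, with 49.7 to 90.8 CPM in Ebf1-high and 30.3 to 58.2 CPM in Ebf1-low libraries. Sums of megakaryocyte and platelet markers, largely Itga2b and Pf4, 13.0 to 198 CPM in Ebf1-high and 350 to 2700 CPM in Ebf1-low libraries, also did not overlap, and their part in these levels was not tested.

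**Figure D3:**
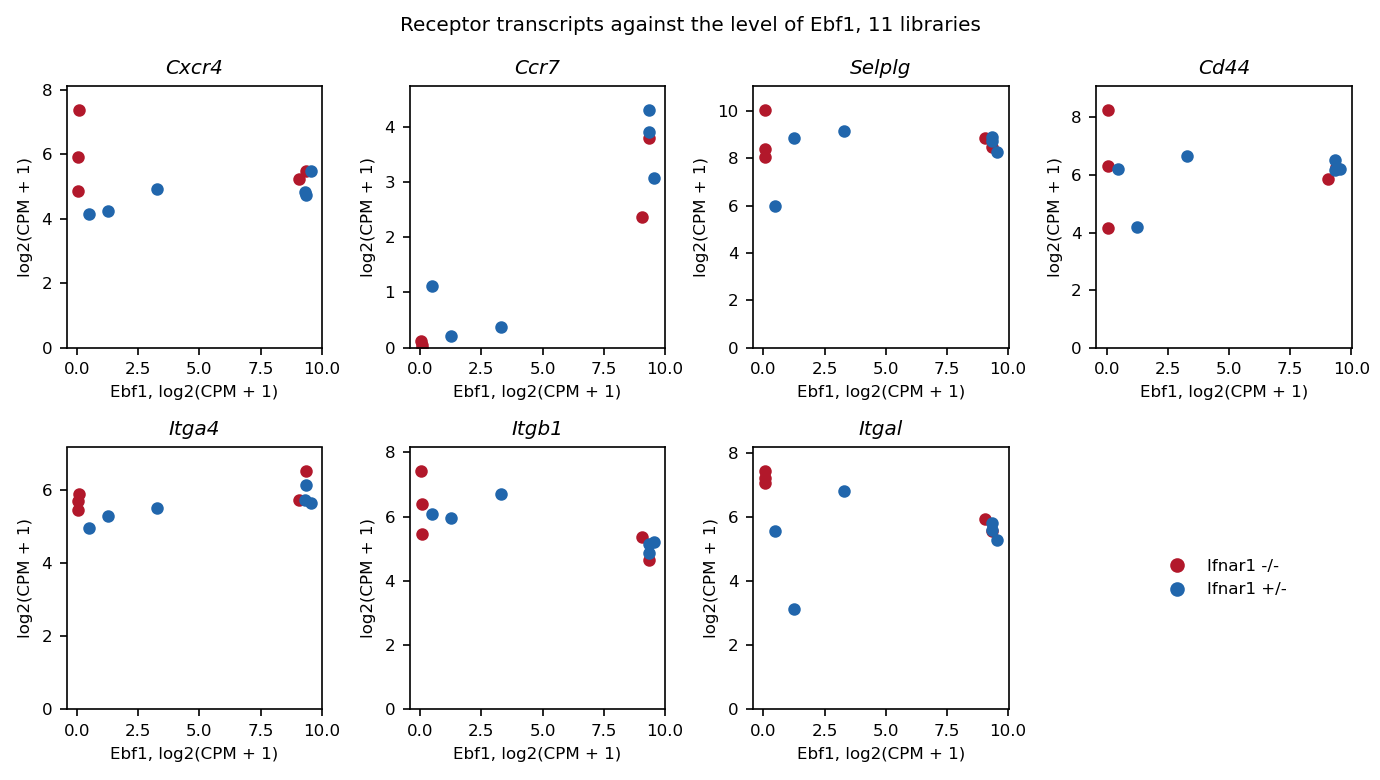
Level of each receptor gene against that of Ebf1 in 11 libraries, both as log2(CPM + 1), coloured by genotype. Ccr7 lies higher and Itgb1 lower in the 5 libraries on the right (Ebf1 at 531 to 745 CPM) than in the 6 on the left, and the other 5 genes overlap.

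Integrin chains work in pairs, and the partner chains differed in spread over the 11 libraries. Itgb7 varied by 67.8 times between its highest and lowest library, Itgb2 by 23.0 times and Itgb1 by 7.10 times. On the scale of CPM per kilobase, Itgb7 was 1.86 to 11.8 in Ebf1-high libraries, while Ebf1-low libraries 1, 2 and 4 of Ifnar1 -/- AML had 92.1, 126 and 105 and those numbered 1, 2 and 6 of Ifnar1 +/- AML had 59.7, 53.1 and 11.8. The ratio of Itga4 to Itgb7 levels per kilobase was 0.316 to 1.91 in Ebf1-high and 0.0330 to 0.183 in Ebf1-low libraries. The ratio of Itga4 to Itgb1 was 0.384 to 1.11 in Ebf1-high and 0.0739 to 0.398 in Ebf1-low libraries, which overlap. Only in Ifnar1 -/- library 3 was the ratio of Itga4 to Itgb1 above 1.

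The partner of Itgal exceeded it in every library. Itgb2 was 46.6 to 63.7 CPM per kilobase in Ebf1-high and 111 to 1073 in Ebf1-low libraries, the highest value being that of Ifnar1 -/- library 2. The ratio of Itgal to Itgb2 was 0.126 to 0.151 in the 5 Ebf1-high libraries and 0.00890 to 0.159 in the Ebf1-low libraries. The lowest ratios were those of Ifnar1 +/- library 1, where Itgal was scarce, and Ifnar1 -/- library 2 at 0.0212, where Itgb2 was abundant. Between genotypes Itgb2 averaged 940.3 ± 1318 CPM in Ifnar1 -/- AML and 301 ± 180.1 CPM in Ifnar1 +/- AML (SD, n = 5 and 6), and Itgb7 averaged 187 ± 155.5 CPM in Ifnar1 -/- AML and 62.7 ± 73.3 CPM in Ifnar1 +/- AML. The Itgb2 mean rests on Ifnar1 -/- library 2 with 3275 CPM. Its medians, 503 CPM in Ifnar1 -/- AML and 259 CPM in Ifnar1 +/- AML, depend on the mix of Ebf1 levels in each genotype. In Ebf1-high libraries Itgb2 was 155 to 194 CPM in Ifnar1 -/- AML and 142 to 179 CPM in Ifnar1 +/- AML. In Ebf1-low libraries it was 503 to 3275 CPM in Ifnar1 -/- AML and 339 to 594 CPM in Ifnar1 +/- AML. The genotypes overlapped at both levels for Itgb2. Itgb7 was 9.45 to 32.75 CPM in Ifnar1 -/- AML and 5.15 to 16.2 CPM in Ifnar1 +/- AML in Ebf1-high libraries, which overlap. In Ebf1-low libraries it was 255 to 349 CPM in Ifnar1 -/- AML and 32.8 to 165 CPM in Ifnar1 +/- AML, which do not. No test was made within a level, and no share over all genes was computed. The means of Itgb7 also depend on the mix of Ebf1 levels. The log2 fold changes, 1.64 (SE 0.78) for Itgb2 and 1.58 (SE 1.07) for Itgb7, did not pass.

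**Figure D4:**
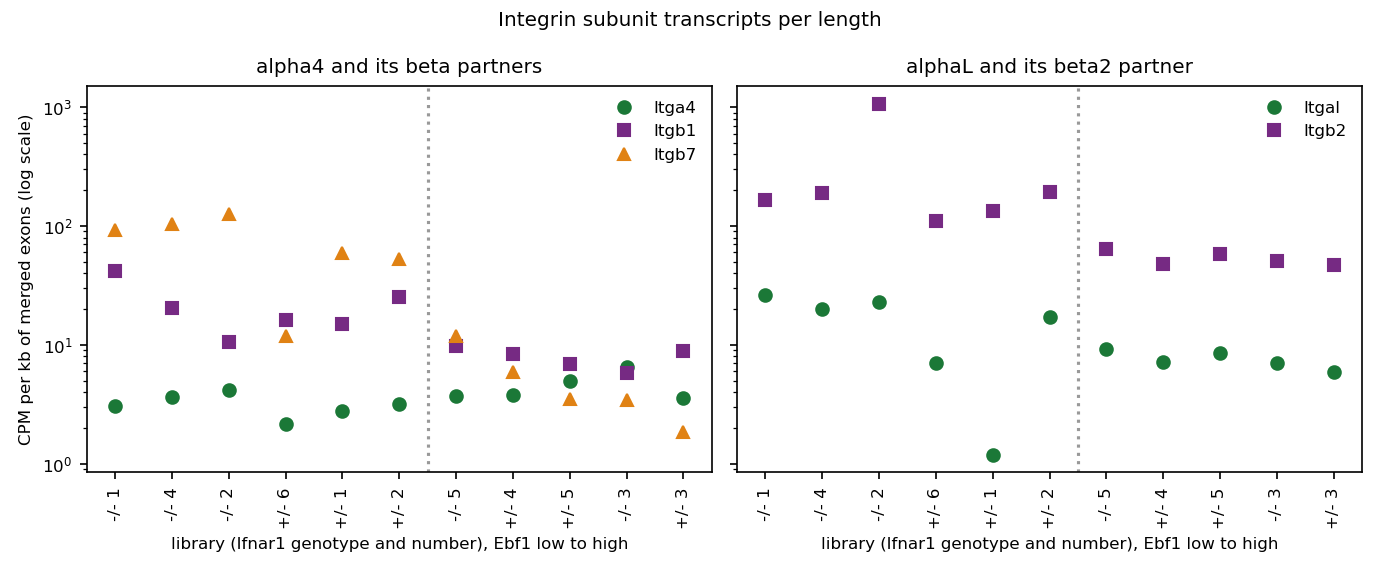
CPM per kilobase of merged exons (log scale) of the alpha4 chain with its beta1 and beta7 partners (left) and of the alphaL chain with its beta2 partner (right), in 11 libraries ordered from low to high Ebf1. The dotted line separates the 6 Ebf1-low from the 5 Ebf1-high libraries, and Itgb2 and Itgb7 are lower to its right (Itgb7 by 11.82 against 11.84 at the nearest libraries) while Itga4 stays between 2.17 and 6.50 throughout.

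The receptor genes did not all vary in the same direction across libraries. Of 21 pairs among them, 4 had a Pearson's r above 0.5 over 11 libraries (log2 CPM) and 2 had one below -0.5. No share over all gene pairs was computed. Cxcr4 and Cd44 had the highest r, 0.69, which was 0.38 without Ifnar1 -/- library 2. Without that library the count above 0.5 was again 4, in part of other pairs. Cxcr4 with Selplg fell from 0.55 to 0.27. Ccr7 rose from 0.10 to 0.55 with Cd44 and from 0.46 to 0.60 with Itga4. Ccr7 and Itgb1 had the lowest, -0.75, and Itga4 and Itgb1, whose proteins pair, had -0.66. These r are descriptions over libraries that share genotype and Ebf1 level.

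Genes most like each receptor gene were taken by Pearson's r of log2 CPM over the 11 libraries, among genes with a mean of at least 10 CPM. Cxcr4 was most like Ppp2r3d, Prss57 and the ETS factor gene Elf4, with r of 0.93, 0.92 and 0.90. Ccr7 was most like Tnfrsf13c, which encodes the BAFF receptor of B cells, Plxnb2 and Bok, each with r of 0.98. Selplg was most like Ppp1r10 (0.97), Dbnl (0.96) and Lrch4 (0.94), and Cd44 was most like the mRNA decapping gene Dcp2, Ehd1 and Stard3, each with 0.91. Itga4 was most like Cyfip2 (0.93), the phospholipase gene Plcg2 (0.92) and the pseudogene Smt3h2-ps4 (0.92), whose reads may be split with its parent gene. Itgb1 was most like the spermine oxidase gene Smox, Bbx and Idi2, each with 0.94, and Itgal was most like the calcium channel gene Orai2 (0.94), the mechanosensitive channel gene Piezo1 (0.88) and Cyth4 (0.83). For Ccr7 and Itgb1 the r include the gap between the 2 levels of Ebf1. For Cxcr4, Selplg and Cd44 the r include Ifnar1 -/- library 2, the highest library for each, and were not repeated without it.

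Other genes of the homing pathway were counted in 6 lists, and 0 genes passed the test between genotypes in either direction (edgeR, Benjamini-Hochberg over all genes), with 0 at an unadjusted p under 0.05. Of 18 other chemokine receptors 9 could be tested, 4 with a log2 fold change above 0 and 5 below, and the median was -0.52. Means over the 11 libraries were highest for Ccr1, Ccrl2 and the eosinophil receptor gene Ccr3, although the median of Ccr3 was only 1.64 CPM. Ccr1 averaged 102 ± 177 CPM in Ifnar1 -/- AML and 48.4 ± 48.9 CPM in Ifnar1 +/- AML (SD, n = 5 and 6, as for all means of these lists), and Ccr3 averaged 40.5 ± 87.9 CPM in Ifnar1 -/- AML and 8.91 ± 16.5 CPM in Ifnar1 +/- AML. Both Ifnar1 -/- means rest on library 2, with 418 CPM of Ccr1 and 198 CPM of Ccr3. Medians of Ccr1 were 31.3 CPM in Ifnar1 -/- AML and 31.6 CPM in Ifnar1 +/- AML. Ackr3, the other receptor for CXCL12, was among the 9 too low to test, at most 0.635 CPM. Of 23 other integrin subunits 15 could be tested, 8 above and 7 below 0, with a median of 0.37. The most abundant after Itgb2 was the platelet chain Itga2b, at 379 ± 474 CPM in Ifnar1 -/- AML and 540 ± 971 CPM in Ifnar1 +/- AML. Its medians had the opposite order, 259 CPM in Ifnar1 -/- AML and 135 CPM in Ifnar1 +/- AML, since Ifnar1 +/- library 1 had 2493 CPM. These medians also depend on the mix of Ebf1 levels, Itga2b being 8.59 to 95.1 CPM in Ebf1-high and 211 to 2493 CPM in Ebf1-low libraries.

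Genes of integrin activation and CXCR4 signalling were all testable, 23 of 23, with 20 log2 fold changes above 0, 3 below and a median of 0.40. Beside this, 7019 of all 14521 tested genes were above 0 and 7502 below. The list was not tested as a set. The GTPase gene Rac2 averaged 2137 ± 1137 CPM in Ifnar1 -/- AML and 1475 ± 192 CPM in Ifnar1 +/- AML. Fermt3, which encodes the integrin activator kindlin-3, averaged 1111 ± 438 CPM in Ifnar1 -/- AML and 842 ± 234 CPM in Ifnar1 +/- AML, and the GTPase gene Cdc42 averaged 582 ± 256 CPM in Ifnar1 -/- AML and 526 ± 105 CPM in Ifnar1 +/- AML. Library 2 was the highest Ifnar1 -/- library for Rac2 (4129 CPM), Fermt3 (1636 CPM) and Cdc42 (1035 CPM). The counts of this list were not repeated without it. Medians of Cdc42 were 487 CPM in Ifnar1 -/- AML and 530.2 CPM in Ifnar1 +/- AML. Fermt3 was 542 to 735 CPM in Ebf1-high and 979 to 1636 CPM in Ebf1-low libraries, ranges that did not overlap. Of 15 genes of selectin ligand synthesis 14 could be tested, 8 above and 6 below 0, with a median of 0.02. The galactosyltransferase gene B4galt1 averaged 202 ± 75.9 CPM in Ifnar1 -/- AML and 239 ± 115 CPM in Ifnar1 +/- AML, and the sulfotransferase gene Tpst2, whose enzyme modifies PSGL-1 and CXCR4, averaged 109.8 ± 60.9 CPM in Ifnar1 -/- AML and 107.9 ± 59.8 CPM in Ifnar1 +/- AML. The sialyltransferase gene St3gal6 averaged 50.7 ± 74.5 CPM in Ifnar1 -/- AML and 41.5 ± 37.4 CPM in Ifnar1 +/- AML, but its medians were 7.17 CPM in Ifnar1 -/- AML and 33.2 CPM in Ifnar1 +/- AML, Ifnar1 -/- library 3 having 175 CPM. These medians also depend on the mix of Ebf1 levels, St3gal6 being 31.5 to 175 CPM in Ebf1-high and 2.77 to 34.8 CPM in Ebf1-low libraries.

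Of 28 other homing and adhesion molecules 25 could be tested, 11 above and 14 below 0, with a median of -0.05. Of 11 ligands of stroma and endothelium 7 could be tested, 4 above and 3 below 0, with a median of 0.22. Cd47, the gene of a signal against phagocytosis, averaged 494 ± 98.4 CPM in Ifnar1 -/- AML and 511 ± 139 CPM in Ifnar1 +/- AML. The invariant chain gene Cd74 averaged 232 ± 329 CPM in Ifnar1 -/- AML and 210.2 ± 123 CPM in Ifnar1 +/- AML, but its medians were 96.8 CPM in Ifnar1 -/- AML and 194 CPM in Ifnar1 +/- AML, Ifnar1 -/- library 5 having 813 CPM. Among the ligands, Icam2 averaged 54.4 ± 24.3 CPM in Ifnar1 -/- AML and 44.8 ± 15.3 CPM in Ifnar1 +/- AML, and Icam1 averaged 37.0 ± 5.62 CPM in Ifnar1 -/- AML and 44.7 ± 15.1 CPM in Ifnar1 +/- AML. Vcam1, the ligand of alpha4 beta1, had 180 CPM in Ifnar1 -/- library 2 and 1.90 to 27.5 CPM in the other 10 libraries. Cxcl12 was at most 10.7 CPM and Selp at most 6.91 CPM.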

How the data were processed

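Total RNA of 11 AML libraries was sequenced, using Qiagen RNAeasy micro plus and Clontech SMRTr, per the labels' protocols. The deposited values are estimated counts per gene that the authors did not scale between libraries. DRAGEN and bcl2fastq are named in the submitters' processing notes without version or role, and the sources used here give neither the build nor the annotation. Of 55774 rows, 287 identical copies were dropped. Symbols matched 55141 identifiers by Ensembl ID, and lengths and positions came from GENCODE M21 (GRCm38).

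Estimated counts were rounded. Genotypes, taken from the labels, were compared with edgeR 4.0.16 (R 4.3.3): filterByExpr by genotype, TMM scaling, a robust quasi-likelihood fit, and Benjamini-Hochberg adjustment over all tested genes at 0.05. An SE is the absolute fold change (log2) over the root of F. CPM values carry TMM factors, and r uses log2 CPM with a prior count of 2. The exact permutation test covered 462 assignments, so its smallest p is 0.00216. Ebf1-high means above 100 CPM. Library totals of 25583642 to 38728143 bear on counting error only. The fit was tested on simulated data. The receptor genes, lists and marker lists were chosen with earlier results of these data known. Genes named by rule are the 7, the 3 most abundant tested genes of each list, integrin partners, Ebf1, Cxcl12, Vcam1 and Selp, and the 3 genes most like each receptor gene, without predicted or clone-named genes; 1 gene named by this rule is not reported here. Other named genes were chosen after their values were seen. Alternatives were DESeq2 1.42.0, limma 3.58.1 (voom with quality weights), other scalings and filters, left-out libraries, a replicate block and an Ebf1 covariate.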

Additional observations from a re-analysis of the deposited data

Results flagged for a closer look

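Values that stood far from the rest of their genotype, by the gap to the nearest library relative to the range, came up in 3 of the 7 receptor genes over 14 sets of libraries. By chance about 1 in 20 such sets would be marked if values were normally distributed and sets independent. The 14 sets come from the same 11 libraries and use unlogged CPM, so that rate need not hold here. In Ifnar1 -/- AML, library 2 was highest for Cxcr4 (166 CPM, the next library having 59.9), Selplg (1065 CPM, next 459) and Cd44 (307 CPM, next 79.2). In Ifnar1 +/- AML, library 1 was lowest for Cd44 at 17.2 CPM, the next library having 71.8 CPM. Ifnar1 -/- library 2 also had the highest sums of eosinophil and neutrophil markers, the second resting on Ngp, Retnlg and S100a9, and their part in these values was not tested.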

How the results depend on the processing

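Over 153 combinations of a receptor gene and an alternative, the log2 fold change kept its direction and its side of the threshold in 142 and turned its sign in 10, and adjusted p was at least 0.508 in all that gave one. Leaving out 1 library at a time gave ranges of 0.65 to 1.51 for Cxcr4, -2.67 to -0.42 for Ccr7, -0.10 to 0.52 for Selplg, -0.31 to 0.86 for Cd44, 0.10 to 0.46 for Itga4, -0.22 to 0.67 for Itgb1 and 0.90 to 1.53 for Itgal. The sign turned in limma voom for Selplg (-0.11), Cd44 (-0.40) and Itga4 (-0.035), without both Ifnar1 -/- library 2 and Ifnar1 +/- library 6 for Selplg (-0.33) and Cd44 (-0.29), and with the Ebf1 covariate for Itgb1 (-0.16). Limma voom moved Ccr7 to -3.96, Itgb1 to 0.89 and Cxcr4 to 0.67. The causes were not tested. The exact permutation test gave a mean log2 difference of 1.04 for Cxcr4 with an unadjusted p of 0.0281. DESeq2 called 3 genes in all, against 0 in edgeR. With the replicate number as a block, Selplg had a log2 fold change of -0.024 and Cxcr4 one of 0.93, and 0 genes passed. The correlation of same-numbered deviations was 0.52, 0.24, 0.62, -0.59 and 0.62 for numbers 1 to 5, and only Ifnar1 -/- library 2 correlated best with its own number, so the numbers were not taken to pair the libraries. Ifnar1 +/- library 6 has no partner. Per kilobase of the longest transcript, the median level was 184 for Selplg and 5.23 for Itga4. With plain library totals, 1 of the 7 genes separated the Ebf1 levels. Ccr7 could not be tested under the filter of 5 CPM in 5 libraries. With a biological coefficient of variation of 0.782, small differences are not detectable here.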

Other observations

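Several genes around the receptors had ranges that did not overlap between Ebf1-high and Ebf1-low libraries, chosen after their values were seen and given as a description beside 21.1% of all tested genes. Dpp4, whose peptidase can cut CXCL12, had 81.4 to 201 CPM in Ebf1-high and 0.103 to 10.7 CPM in Ebf1-low libraries.

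Of 14 tested genes of selectin ligand synthesis, 1 lay above in Ebf1-high libraries without overlap and 5 lay below. Over all 14521 tested genes these counts were 1751 above and 1307 below (21.1% together). The sulfotransferase gene Tpst1 had 20.5 to 32.1 CPM in Ebf1-high and 1.73 to 4.90 CPM in Ebf1-low libraries, while Gcnt1, which builds the core sugar that carries selectin ligands, had 1.91 to 7.10 CPM in Ebf1-high and 25.4 to 81.7 CPM in Ebf1-low libraries. St3gal4, a sialyltransferase gene, had 10.5 to 15.3 CPM in Ebf1-high and 40.7 to 88.8 CPM in Ebf1-low libraries. Among 23 genes of integrin activation and CXCR4 signalling, 2 lay above in Ebf1-high libraries without overlap (Rasgrp2 and Dpp4) and 8 lay below. Rasgrp2 had 108 to 332 CPM in Ebf1-high and 6.95 to 94.6 CPM in Ebf1-low libraries. Tln1, the talin gene and 1 of the 8, had 98.2 to 146 CPM in Ebf1-high and 253 to 608 CPM in Ebf1-low libraries.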
